A study of Mus musculus with 9 samples.

Results

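The genes described here are 35 regulators and surface markers of preadipocytes and of their differentiation into fat cells, taken from a given list of gene symbols. Each was looked up by the symbol in the platform annotation, and where a gene had several probe sets the brightest on average over the 9 arrays was used. In this way 34 of the 35 genes were measured, out of 18193 genes in all, and Ly6a, a progenitor surface antigen, was matched to no probe set with a single gene symbol. By their best known roles, 11 of the measured genes favour adipogenesis, 13 restrain it, 7 act either way depending on context and 3 are surface markers of progenitors.

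Transcripts were measured in NIH-CAR cells, 1 clonal line of NIH-3T3 mouse fibroblasts that stably expresses the coxsackievirus and adenovirus receptor (CARΔ1), at passage 12. All cells received an adenovirus for 2 h. The empty-vector group (AdEmpty) then received the vehicle DMSO, the full-length group received HA-tagged PPARγ2 and rosiglitazone, and the A/B-deleted group received HA-PPARγCDE, which lacks the A/B-domain, and rosiglitazone, with 3 arrays in each group and the agonist at 1 µM. Receptor and agonist were added together, so the groups do not separate their effects, and the time between agonist and harvest is not given in the sources used here. Nothing in the labels says which arrays came from which culture, so p-values measure only the spread between these arrays, which may be technical.

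Adipogenesis begins with committed fibroblast-like preadipocytes, in which Wnt ligands, GATA factors and the surface protein DLK1 hold differentiation back. Early activators, among them KLF and EBF transcription factors, then help to induce PPARγ, the nuclear receptor that turns on the genes of the fat cell. Many regulators of the preadipocyte state are switched off as differentiation proceeds, and the comparisons below ask whether they already differ when PPARγ and its agonist are supplied from outside, and whether the A/B-domain matters for it.

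All levels and differences are on the log2 scale of the deposited RMA values, on which a difference of 1 is a doubling. Levels are mean ± SD over 3 arrays, differences carry a standard error (SE), and adjusted p-values are from limma over all 18193 genes and were called under 0.05. Array medians ran from 6.68 to 6.90, and 6 members had means below all of them (Ebf2, Gata3, Klf15, Sfrp2, Wnt5b and Zfp423), as did 33.9% of all genes. The table holds no detection calls, so such a level cannot be told from background. Pparg, at 7.06 ± 0.10 (SD, n = 3) with empty vector, was at 11.25 ± 0.84 with the full-length and 11.34 ± 0.63 with the A/B-deleted receptor. Of 9 fibroblast markers 8 had a mean over the 9 arrays above all array medians, the exception being Lum. The counts were 0 of 6 leukocyte, 0 of 5 bone and cartilage, 2 of 7 muscle and 2 of 7 epithelial and endothelial markers. None of these markers was called in any comparison.

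The arrays numbered 3 stood apart from the others within all 3 groups. Of the 34 members, 13 had all 3 of these arrays below all 6 other arrays, against 9.48% of all genes, and 2, Foxc2 and Twist1, had them above, against 10.3% of all genes. The labels do not say what an equal number means. Its part in the differences between groups was examined only by fits without these arrays and by a fit with the number as a block. For part of the members the value without the arrays numbered 3 is given as well, and where it is not given the value may also have moved.

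In the fit of group means, which takes no account of the array number, none of the 34 members was called between the full-length receptor with rosiglitazone and the empty vector. The comparison as a whole was not empty, since limma called 0.5% of all genes higher and 0.154% lower. Among the members 6 had an unadjusted p under 0.05, which is 17.6% of them against 6.19% of all genes. Of these, 5 had negative differences (Wnt5a, Zfp521, Sox9, Hes1 and Cd34; 3.16% of all genes) and 1, Klf5, a positive one (3.04% of all genes). The median difference was -0.03 over the members and 0.00 over all genes, with 22 members below 0 and 12 above. Above 0 were 35.3% of members and 50.9% of all genes. Differences larger than 0.5 in either direction were found in 23.5% of members and 4.09% of all genes, while the intervals of the members were wider than those of all genes (median width to either side 0.56 against 0.36). Without the arrays numbered 3 the counts below and above 0 were again 22 and 12, the median was -0.08 and 0 members were called. With the array number added to the fit as a block, limma called 7 members, 2 higher and 5 lower. Over all genes that fit called 1.89% higher and 1.74% lower. The labels do not say that equal numbers pair arrays, and the 7 genes are named in the closing section.

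Wnt5a, a ligand that acts mostly through the non-canonical Wnt pathway, had the smallest adjusted p of the members. Its level was 8.13, 8.71 and 8.18 on the empty-vector arrays and 7.79, 7.46 and 7.18 on the full-length arrays. The groups did not overlap, and all 3 full-length arrays were low. The difference was -0.86 (SE 0.20, limma adjusted p = 0.132), a ratio of 0.549, and the 95% interval ran from -1.31 to -0.42. Without the arrays numbered 3 it was -0.80 (limma adjusted p = 0.201). A lack of overlap between groups, in either direction, was found in 11.8% of members and 9.38% of all genes. It was negative in 3 members (Wnt5a, Zfp521 and Sox9; 4.86% of all genes) and positive in 1 (Foxo1; 4.52% of all genes).

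Klf4, an early activator of adipogenesis upstream of Cebpb, had the largest difference in size. Its level was 8.88, 9.86 and 10.57 with empty vector and 7.99, 8.86 and 9.46 with the full-length receptor. The array numbered 1 was the low one and that numbered 3 the high one in both groups, and each group ranged over more than the difference between them, so the groups overlapped. The difference was -1.0 (SE 0.53, limma adjusted p = 0.979), a ratio of 0.499, and the 95% interval ran from -2.19 to 0.18. It was -0.95 without the arrays numbered 3, and with 1 array left out it ran from -1.45 (without the empty-vector array numbered 1) to -0.60 (without the empty-vector array numbered 3). With the array number as a block the limma adjusted p for Klf4 was 0.00271, with the same limit that the labels do not explain the numbers.

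Among the genes that restrain adipogenesis, Zfp521, a zinc finger protein that opposes EBF1, and Sox9, a transcription factor of mesenchymal progenitors and cartilage, were separated between the groups. Zfp521 was at 8.24, 8.90 and 8.16 with empty vector and at 7.85, 7.84 and 7.07 with the full-length receptor. Its difference was -0.84 (SE 0.25, limma adjusted p = 0.310), and -0.72 without the arrays numbered 3. Every full-length array thus lay below every empty-vector array.

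Sox9 was at 11.01, 11.18 and 10.81 with empty vector and at 10.14, 10.79 and 9.73 with the full-length receptor. These groups also did not overlap, though the highest full-length array, 10.79, came close to the lowest empty-vector array. The difference was -0.78 (SE 0.25, limma adjusted p = 0.399), and -0.63 without the arrays numbered 3. Hes1, a repressor induced by Notch signalling, was at 7.56 ± 0.35 (SD, n = 3) and 6.94 ± 0.26, a difference of -0.62 (SE 0.20, limma adjusted p = 0.417). It was -0.45 without the arrays numbered 3. Here the lowest empty-vector array, 7.18, lay just below the highest full-length array, 7.20.

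The largest positive differences belonged to Klf5 and Ebf1, both activators of early adipogenesis. Klf5 was at 8.56, 8.90 and 9.36 with empty vector and at 9.34, 9.51 and 9.82 with the full-length receptor. Only the highest empty-vector array reached into the range of the full-length arrays. The difference was 0.61 (SE 0.27, limma adjusted p = 0.795), a ratio of 1.53, and 0.70 without the arrays numbered 3.

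Ebf1 was at 9.34, 9.75 and 8.57 with empty vector and at 9.90, 10.27 and 9.12 with the full-length receptor. The array numbered 3 was the low one in each group, and the groups overlapped. The difference was 0.54 (SE 0.40, limma adjusted p = 1.00), and also 0.54 without the arrays numbered 3. Leaving out 1 array moved it further, to 0.22 without the empty-vector array numbered 3 and to 0.87 without the full-length array numbered 3. Such a fit leaves the 2 groups with unequal sets of array numbers. With the number as a block the limma adjusted p for Ebf1 was 0.0118, though the labels do not say that equal numbers pair arrays. Next came the Wnt-responsive transcription factors Tcf7l2, with 0.26 (SE 0.30), and Tcf7l1, with 0.25 (SE 0.24), both with a limma adjusted p of 1.00. These were 0.46 and 0.32 without the arrays numbered 3.

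**Figure D1:**
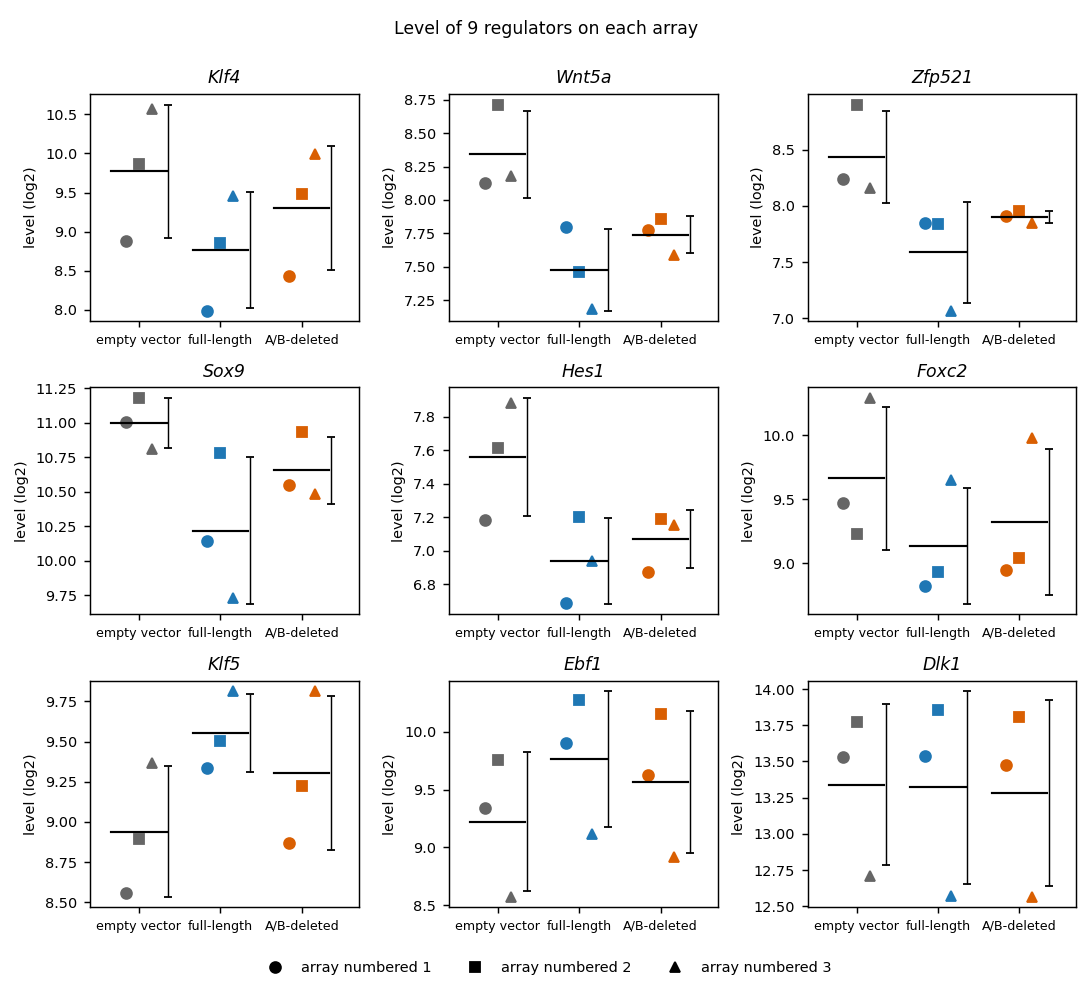
The plot shows the log2 level (y axis, a scale for each gene that does not start at 0) of 9 regulators in the 3 groups (x axis), 1 symbol per array by its number, with the mean as a line and the SD as a bar. Wnt5a, Zfp521 and Sox9 show no overlap between full-length and empty-vector arrays, while in Dlk1 the 3 groups lie at the same levels and the array numbered 3 is the low one in each.

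Seen by role, the genes that favour adipogenesis and those that restrain it had nearly equal medians. The 11 favouring genes had a median difference of -0.02, from -1.0 (Klf4) to 0.61 (Klf5), with 6 below 0. The 13 restraining genes had a median of -0.04, from -0.84 (Zfp521) to 0.12 (Foxo1), with 10 below 0. The 7 genes of mixed role had a median of -0.11 and the 3 surface markers one of -0.44. All of these counts rest on differences of which none was called in the fit of group means.

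Dlk1, the surface protein that keeps preadipocytes from differentiating, was at 13.34 ± 0.56 (SD, n = 3) with empty vector and 13.32 ± 0.67 with the full-length receptor. The difference was -0.02 (SE 0.42), and the 95% interval, which includes the spread between array numbers, ran from -0.96 to 0.92. Without the arrays numbered 3 the difference was 0.04 and its SE 0.17. The GATA factors, which hold PPARγ expression down in preadipocytes, gave -0.20 (Gata2, SE 0.25) and 0.00 (Gata3, SE 0.28). Nr2f2, the nuclear receptor COUP-TFII, gave -0.02 (SE 0.20), and Foxo1, a forkhead factor restrained by insulin signalling, gave 0.12 (SE 0.13). The inhibitor of DNA binding genes Id2 and Id3 gave 0.09 (SE 0.18) and -0.02 (SE 0.32), and 0.16 and -0.05 without the arrays numbered 3.

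The canonical Wnt ligands Wnt6 and Wnt10b, which suppress adipogenesis, had differences of -0.04 (SE 0.14) and -0.11 (SE 0.28). Wnt5b, a ligand reported to favour it, had -0.10 (SE 0.16). The secreted Wnt antagonists Sfrp1 and Sfrp2 had -0.02 (SE 0.19) and -0.11 (SE 0.64). Sfrp2 had the widest interval of all members, from -1.55 to 1.33, as its arrays numbered 3 read 5.26 to 5.48 and its other 6 arrays 6.68 to 7.32.

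Of the remaining KLF factors, the activators Klf6, Klf9 and Klf15 had differences of -0.16 (SE 0.13), 0.01 (SE 0.41) and -0.07 (SE 0.32). The repressors Klf2, Klf3 and Klf7 had -0.09 (SE 0.18), -0.23 (SE 0.34) and 0.00 (SE 0.18). The zinc finger protein Zfp423 and the factor Ebf2, both marks of committed preadipocytes, had -0.03 (SE 0.12) and 0.17 (SE 0.21). Foxc2, a forkhead factor, had -0.53 (SE 0.36) and the mesenchymal factor Twist1 0.23 (SE 0.18). Several of these values hung on the arrays numbered 3. Without them the difference was -0.54 in Klf15, -0.51 in Gata3, -0.51 in Wnt10b and -0.32 in Wnt5b, all larger in size than with them. It was -0.01 in Klf3, smaller than with them, and -0.13 in Ebf2, where the sign turned.

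Among the surface markers Cd34 was at 8.65, 9.18 and 9.16 with empty vector and at 8.49, 8.84 and 8.34 with the full-length receptor, a difference of -0.44 (SE 0.19, limma adjusted p = 0.769). It was -0.25 without the arrays numbered 3. Pdgfra, a receptor that marks adipocyte progenitors, gave -0.44 (SE 0.48), and the related Pdgfrb, a mark of mural and stromal cells, gave 0.17 (SE 0.51). Both were recomputed without the arrays numbered 3, which gave -0.43 and 0.30. In such bulk RNA, fewer cells of a type and less RNA per cell cannot be told apart.

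With the A/B-deleted receptor and rosiglitazone, again none of the 34 members was called against empty vector in the fit of group means. There limma called 0.159% of all genes higher and 0.011% lower. Wnt5a and Hes1 had an unadjusted p under 0.05, both with negative differences, which is 5.88% of members against 3.79% of all genes (1.57% negative and 2.22% positive). The median difference was -0.07 over the members and -0.03 over all genes, and without the arrays numbered 3 it was again -0.07 with 0 members called. The differences ran from -0.60 (Wnt5a) to 0.36 (Klf5). The SEs, intervals and adjusted p-values of this comparison take no account of the array number unless a block is named. Equal numbers counted as pairs here by the rule given below, though the labels do not say so. With the number as a block 0 members were called, against 0.66% of all genes higher and 0.253% lower. In that fit the limma adjusted p was 0.0685 in Klf4 and 0.107 in Ebf1. The empty-vector arrays are the same as in the first comparison, so the values below are not an independent repeat of it.

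Wnt5a was at 7.78, 7.86 and 7.59 on the A/B-deleted arrays, all below the 3 empty-vector arrays. The difference was -0.60 (SE 0.20, limma adjusted p = 0.876), and -0.60 without the arrays numbered 3. Zfp521 was at 7.91, 7.95 and 7.85, again below every empty-vector array, with a difference of -0.53 (SE 0.25, limma adjusted p = 1.00). It was -0.64 without the arrays numbered 3. Groups without overlap made up 8.82% of members and 7.89% of all genes, with negative differences in 4.03% and positive ones in 3.86% of all genes. The only other member of that kind was Zfp423, at 5.36 ± 0.10 (SD, n = 3) against 5.19 ± 0.07, a difference of 0.17 (SE 0.12) at a level below all array medians.

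Hes1 was at 6.87, 7.19 and 7.15, with a difference of -0.49 (SE 0.20, limma adjusted p = 1.00). Klf4 was at 8.44, 9.48 and 9.99, with a difference of -0.47 (SE 0.53). Both overlapped with empty vector. Klf5 was at 8.87, 9.23 and 9.82, a difference of 0.36 (SE 0.27), and Ebf1 at 9.62, 10.15 and 8.92, a difference of 0.34 (SE 0.40). Tcf7l2 followed with 0.21 (SE 0.30), and Sox9 stood at -0.34 (SE 0.25).

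The 11 favouring genes had a median of -0.02 and the 13 restraining genes one of -0.13 in this comparison. Of the restraining genes 10 were below 0, from -0.53 (Zfp521) to -0.02 (Gata2). Above 0 were 23.1% of them, against 42.2% of all genes. The 3 above 0 were Klf3, Foxo1 and Nr2f2, with 0.07, 0.06 and 0.04. Without the arrays numbered 3 these 3 were at 0.20, -0.06 and 0.05, so the sign turned in Foxo1. The genes of mixed role had a median of 0.06 and the surface markers one of -0.15. Dlk1 differed by -0.06, and its 95% interval ran from -1.0 to 0.88.

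**Figure D2:**
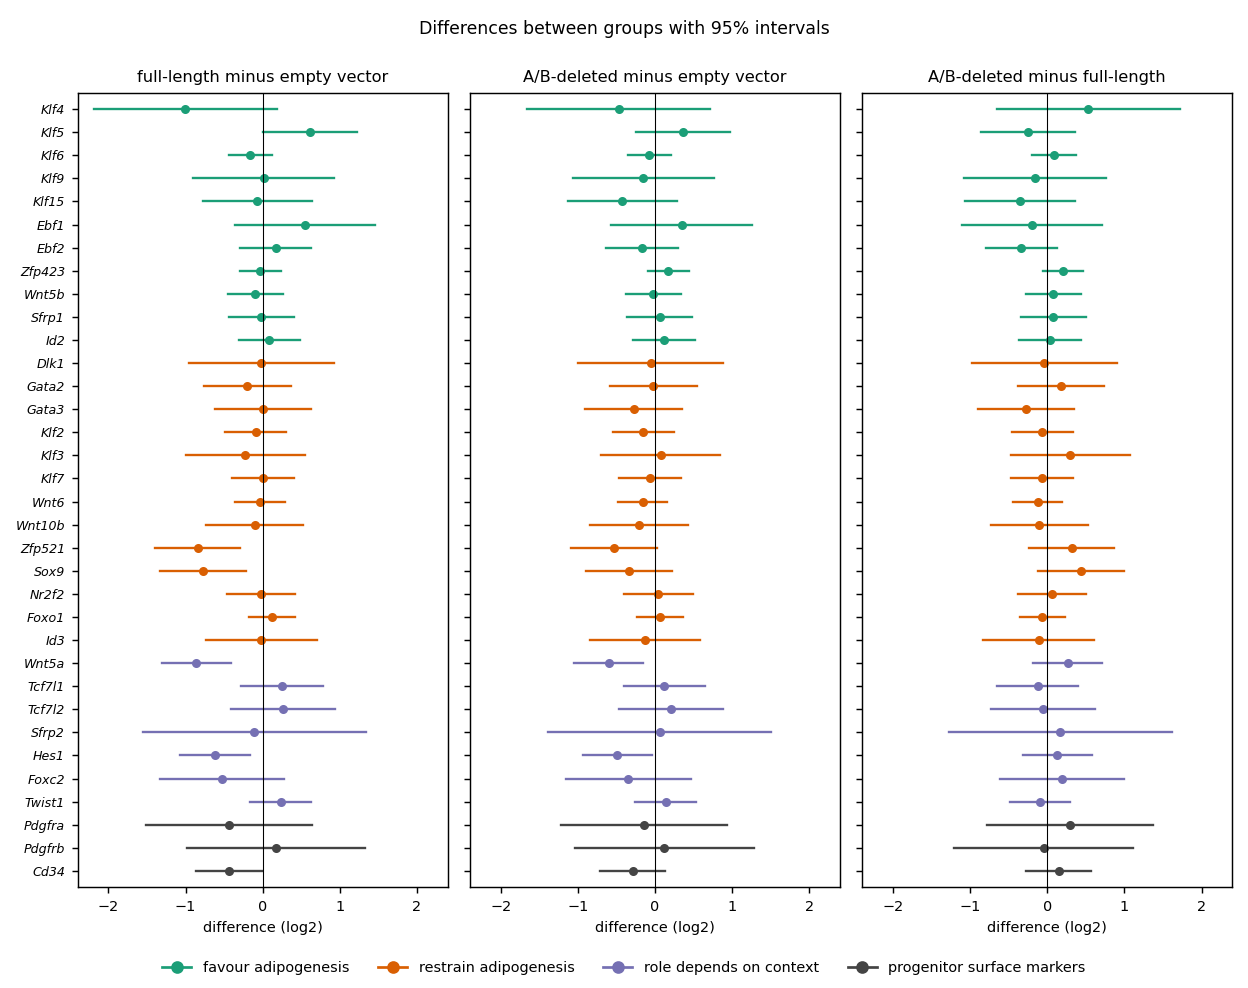
The plot shows the difference (point, log2 scale on the x axis) and its 95% interval from limma (line) for each of the 34 regulators (y axis), in 1 panel per comparison and coloured by role. In the left panel the intervals of Wnt5a, Zfp521, Sox9, Hes1 and Cd34 lie below 0 and that of Klf5 above, in the middle panel those of Wnt5a and Hes1 lie below 0, and in the right panel all intervals include 0.

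The direct comparison of the A/B-deleted with the full-length receptor asks whether the A/B-domain matters for these genes. Limma called no gene here, 0.0% of the 18193, and no member had an unadjusted p under 0.05, against 277 genes, or 1.52%, over the whole table (0.544% positive and 0.978% negative). The members were split evenly, with 17 above and 17 below 0, and their median difference was 0.00 against -0.01 over all genes. Of all genes 46.0% were above 0. No member was free of overlap between the receptors, where 5.17% of all genes were (2.02% positive and 3.14% negative). Without the arrays numbered 3 the median was 0.05, with 19 above and 15 below 0 and 0 members called.

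The members with the largest positive differences were Klf4 (0.53, SE 0.53), Sox9 (0.44, SE 0.25), Zfp521 (0.32, SE 0.25, and 0.09 without the arrays numbered 3) and Klf3 (0.30, SE 0.34). Klf4 and Sox9 had intervals from -0.65 to 1.72 and from -0.12 to 0.99. In Klf3 the full-length array numbered 3 was the lowest of the 9, at 8.93, and the difference was 0.20 without the arrays of that number. For Wnt5a the difference was 0.26 (SE 0.20), with an interval from -0.18 to 0.71. These intervals include 0. In Klf4 and Sox9 they also include values as large as the full-length receptor's own difference from empty vector. They therefore do not show that the receptors act alike. The fit behind them takes no account of the array number, which held 71.1% of the sum of squares in Klf4. With the number as a block the limma adjusted p was 0.377 in Klf4 and 0.980 in Sox9, and 0 members were called.

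The largest negative differences were those of Klf15 (-0.35, SE 0.32), Ebf2 (-0.34, SE 0.21), Gata3 (-0.28, SE 0.28) and Klf5 (-0.25, SE 0.27). In the first 3 of these genes the full-length array numbered 3 was the highest of the 9 arrays, at 6.41, 6.99 and 6.80, and all 3 genes have means below the array medians. Without the arrays numbered 3 the difference was 0.02 in Klf15, -0.18 in Ebf2 and 0.10 in Gata3, so that the direction in Klf15 and Gata3 rested on those arrays. In Klf5 it was -0.38 without them.

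Much of the spread in these genes followed the array number. When the sum of squares over the 9 arrays was divided between array number, group and the rest, the number held a median of 63.9% over the members and 32.3% over all genes. The group held 12.9% over the members and 14.1% over all genes. In 26 of the 34 members the number held more than the group did, which is 76.5% of them against 65.5% of all genes. These shares are descriptions with no test.

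Dlk1 was the clearest case, with 99.2% of its sum of squares by number and 0.22% by group. Its arrays numbered 3 were at 12.71, 12.57 and 12.57 and the other 6 between 13.48 and 13.85. Sfrp2 had 98.8% by number, and the growth factor receptor genes Pdgfra and Pdgfrb had 89.3% and 94.8%. Both receptors had means of 11.30 and 11.10 on the arrays numbered 1 and of 10.02 and 9.72 on those numbered 3.

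Klf4 and Foxc2 ran the other way, with means of 10.01 and 9.98 on the arrays numbered 3 against 8.44 and 9.08 on those numbered 1. In Klf4 the number held 71.1%, the group 28.5% and the rest 0.39%. In Ebf1 the number held 82.5%, the group 17.2% and the rest 0.26%. The group held a larger share than the number in Wnt5a (72.8%), Zfp521 (59.6%), Hes1 (59.0%) and Sox9 (55.0%). It also did so in Zfp423 (48.3%), Cd34 (43.8%), Ebf2 (26.1%) and Gata3 (13.8%). In Ebf2 and Gata3 the rest held more than the group, at 59.7% and 83.6%.

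**Figure D3:**
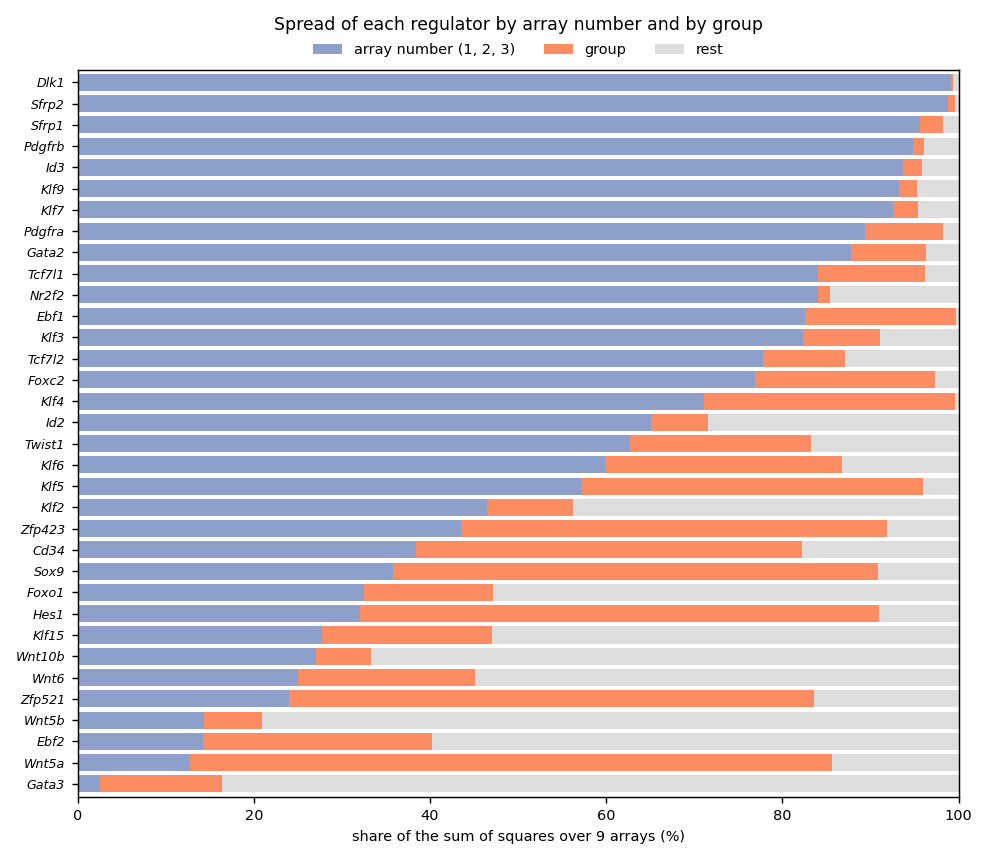
The plot divides the sum of squares of each regulator over the 9 arrays (x axis, in percent) between the array number, the group and the rest, with the 34 genes on the y axis ordered by the share of the number. Dlk1 and Sfrp2 are almost wholly set by the number, and in Wnt5a the group holds 72.8%.

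The 34 members had 93 probe sets in all, and 23 of them had more than 1. Both probe sets of Klf4 gave the same picture, with -1.0 and -1.03 for the full-length receptor and -0.47 and -0.50 for the A/B-deleted receptor. All 3 probe sets of Sox9 were below 0 with either receptor, from -1.18 to -0.30 and from -0.59 to -0.31. Of the 4 probe sets of Wnt5a 3 lay between -1.01 and -0.75 with the full-length receptor, and the fourth was at 0.01, with a mean of 6.04 on the empty-vector arrays. With the A/B-deleted receptor the same 3 lay between -0.60 and -0.53 and the fourth at 0.11. In Zfp521 the probe sets disagreed, with -0.84 and 0.01, so its difference rests on 1 of 2 probe sets. With the A/B-deleted receptor they were at -0.53 and -0.09, and the groups overlapped in the second. The lack of overlap in Foxo1 with the full-length receptor rests on 1 of 4 probe sets. Its others lay between -0.02 and 0.03, and the groups overlapped in each.

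The 5 probe sets of Ebf1 lay between 0.29 and 0.57 with the full-length receptor and between -0.08 and 0.46 with the A/B-deleted receptor. The 3 of Klf5 lay between 0.18 and 0.61 and between -0.21 and 0.36. The 7 of Klf3 and the 7 of Klf9 fell on either side of 0 in both comparisons. Which transcript forms the probe sets detect was not examined.

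**Figure D4:**
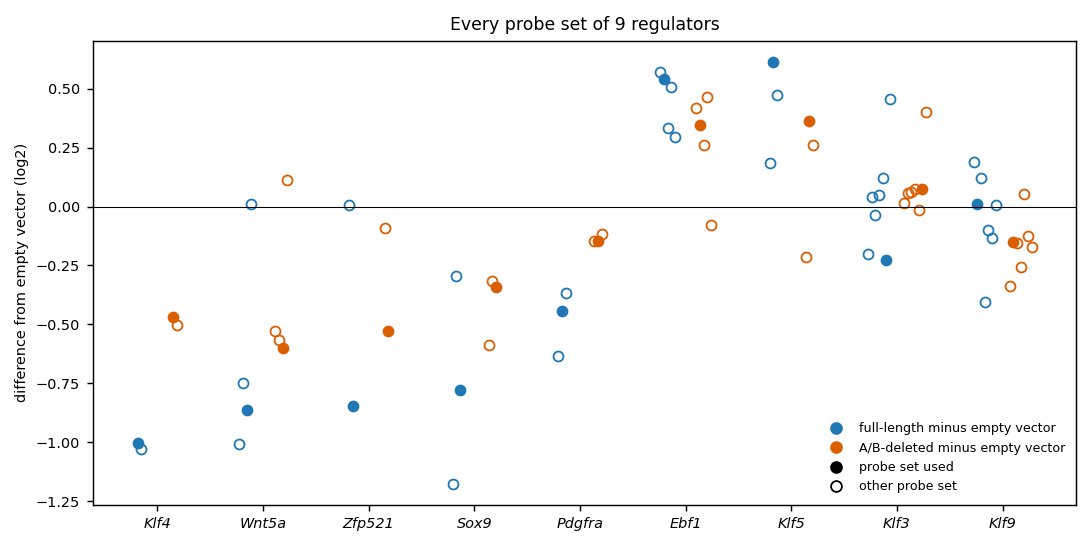
The plot shows the difference from empty vector (y axis, log2) for every probe set of 9 regulators (x axis), in blue for the full-length and in orange for the A/B-deleted receptor, with filled symbols for the probe set used. The probe sets of Klf4 and Sox9 all lie below 0, and 1 probe set each of Wnt5a and Zfp521 lies near 0 with the full-length receptor.

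The promoters of 3 members are given to show the sequence before a gene with the largest negative difference (Klf4), one with a positive difference (Ebf1) and one whose mean levels lay within 0.06 of each other in the 3 groups (Dlk1). They are the 250 bases before the start site, read 5′ to 3′ along the gene's own strand, from RefSeq on GRCm38.p6. Klf4 is at chr4:55532476-55532725 on the minus strand, Ebf1, at the first of its 2 listed start sites, at chr11:44617850-44618099 on the plus strand, and Dlk1 at chr12:109452573-109452822 on the plus strand. Capitals mark the GC box GGGCGG and the CACCC box on either strand, short motifs that KLF and SP factors are known to bind.
Klf4: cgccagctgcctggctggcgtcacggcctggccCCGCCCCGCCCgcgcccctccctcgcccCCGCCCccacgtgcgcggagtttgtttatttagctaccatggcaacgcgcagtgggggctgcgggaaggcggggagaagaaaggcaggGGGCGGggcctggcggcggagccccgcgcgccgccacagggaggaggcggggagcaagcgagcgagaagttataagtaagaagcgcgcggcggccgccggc
Ebf1: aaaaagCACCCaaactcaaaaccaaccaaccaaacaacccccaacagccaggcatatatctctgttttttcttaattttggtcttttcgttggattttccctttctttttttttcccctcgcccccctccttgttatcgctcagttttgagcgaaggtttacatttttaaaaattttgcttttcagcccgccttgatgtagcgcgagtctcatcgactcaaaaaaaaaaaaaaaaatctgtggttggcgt
Dlk1: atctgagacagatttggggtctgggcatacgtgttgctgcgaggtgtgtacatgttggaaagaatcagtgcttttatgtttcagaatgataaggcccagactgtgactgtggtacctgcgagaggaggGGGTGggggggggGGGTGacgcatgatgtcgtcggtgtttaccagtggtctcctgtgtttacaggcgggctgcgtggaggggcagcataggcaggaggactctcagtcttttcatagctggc
Klf4 holds 4 GC boxes in a sequence that is 74.0% G and C. Ebf1 holds 1 CACCC box, and Dlk1 holds 2 at 54.8% G and C.

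Of the 35 members 25 had a promoter in this table, with 31 start sites. A GC box stood in 64.5% of these 250-base windows, against 32.7% of all 32851 windows in the table, and a CACCC box in 77.4% against 52.0%. The letters AGGTCA, 1 arm of the PPAR response element, stood in 1 of the 31, that of Zfp423, against 14.0% of all windows. The whole element AGGTCANAGGTCA stood in 0 of the 31 and in 0.0335% of all. All motifs were searched on both strands, the element contains its own arm, and a match or its lack describes these letters in this window only. The members without an entry were Ebf2, Foxc2, Hes1, Klf5, Ly6a, Pdgfrb, Sfrp1, Sox9, Wnt5a and Zfp521.

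Genes around the members in the same pathways were also not called. Of 35 other Wnt pathway genes, among them ligands, frizzled receptors and antagonists, limma called 0 in each comparison. With the full-length receptor 3 of these 35 had an unadjusted p under 0.05 and a positive difference and 1 a negative one. Over all genes the shares were 3.04% and 3.16%. The median of these Wnt genes was -0.02. Of 13 other KLF, GATA, EBF and ID genes and 14 Notch pathway genes limma also called 0 in each comparison. With the full-length receptor 3 of the 13 and 2 of the 14 had an unadjusted p under 0.05 and were positive, against 3.04% of all genes. Negative at that p were 1 and 0, against 3.16% of all genes, and the medians were 0.01 and 0.02. With the A/B-deleted receptor the counts at an unadjusted p under 0.05 were 0 for the Wnt genes. They were 2 of the 13 and 3 of the 14, all positive, for the others. Over all genes 2.22% were positive and 1.57% negative at that p. Between the receptors 1 Wnt gene had an unadjusted p under 0.05 and was negative. At that p 1 gene of the KLF, GATA, EBF and ID list was positive, and 0 Notch genes passed. Over all genes 0.978% were negative and 0.544% positive.

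Target genes of PPARγ in adipocytes were called on the same arrays. Of 16 such genes, 6 rose with the full-length receptor (Fabp4, Lpl, Angptl4, Plin2, Cidec and Cpt1a) and 5 with the A/B-deleted receptor, the same without Cidec. The medians over the list were 0.73 and 0.43. Between the receptors limma called 0 of them. There 3 had an unadjusted limma p under 0.05, all lower with the A/B-deleted receptor, against 0.978% of all genes. In that comparison 14 of the 16 were below 0, and their median was -0.26. Above 0 were 12.5% of them, against 46.0% of all genes. Fabp4, a fatty acid carrier of fat cells, was at 5.82 ± 0.37 (SD, n = 3), 13.42 ± 0.26 and 12.36 ± 1.15 in the 3 groups. The summed log2 level of 6 adipocyte markers ran from 33.1 to 35.5 with empty vector. It ran from 43.5 to 45.6 with the full-length and from 40.3 to 42.6 with the A/B-deleted receptor. This rise does not describe the whole set, as most of it came from Fabp4. Cidec, the only other of these markers called in any comparison, differed from empty vector by 2.51 and 0.55. Only 2 of the 6 markers lay above all array medians, and Adipoq, Cidec, Lep and Cd36 did not. The summed level of 6 preadipocyte markers, all members, overlapped between the groups, at 53.3 to 56.7, 52.4 to 56.4 and 52.5 to 56.6.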

How the data were processed

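Total RNA of 9 samples of NIH-CAR cells was labelled from an oligo(dT) primer and measured on Affymetrix arrays, per the labels' protocols. The deposited table gives log2 levels of 45101 probe sets on the 9 arrays. The submitters' processing notes name RMA, affy and R 2.5.0 for the authors' step from scans to these log2 values, and its settings are not given in the sources used here. That the base is 2 was read from the values: on every array at least 99.858% of the antilogs were multiples of 0.01, to a tolerance of 0.01 of that step. Groups and numbers came from the sample titles. Arrays have no read depth, and their number limits the precision.

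Of the probe sets, 34945 had 1 gene symbol, 932 several and 9160 none, and 64 were controls. Entrez numbers of 34741 matched the RefSeq table of GRCm38.p6, with 0 symbols changed. They gave 18193 genes.

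Differences were fitted on the log2 values as deposited with limma 3.58.1 in R 4.3.3, as 3 group means over 9 arrays with no block (6 residual and 3.374 prior degrees of freedom), and two-sided p-values were adjusted by Benjamini-Hochberg over all genes. The fit was tested on simulated data with independent noise and no effect of array number, so that test does not cover the spread by number. Tables used Python 3.11.15, pandas 2.3.3 and numpy 2.4.6, and figures matplotlib 3.10.9. Alternatives covered the replicate block, the choice of probe set, scaling, a filter on low values, the variance prior and left-out arrays.

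Equal array numbers counted as pairs where all 3 correlations of their deviations from the group means, across genes, exceeded 0.1. The correlations were 0.52 to 0.708 for A/B-deleted with empty vector and 0.297 to 0.531 for A/B-deleted with full-length, and both counted as pairs from the data alone.

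The members and lists were chosen with earlier results of these data known. The naming rule took all called members and the 4 largest differences in each direction of a comparison. Other members are given with fewer statistics, genes of other lists were named where called, and Pparg and Fabp4 served as checks.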

Additional observations from a re-analysis of the deposited data

How the results depend on the processing

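No member was called in any of the 3 comparisons under any of 18 alternatives, with 1 exception. With the replicate block, limma called 7 members between full-length receptor and empty vector. Klf5 and Ebf1 were higher (adjusted p = 0.0285 and 0.0118) and Klf4, Sox9, Wnt5a, Hes1 and Foxc2 lower (adjusted p = 0.00271, 0.0395, 0.0495, 0.0480 and 0.0434), and over all genes the block called 1.89% higher and 1.74% lower. The labels do not say what an equal number means for these arrays. Their same-number correlations ran from -0.121 to 0.631, and the full-length array numbered 1 correlated best with the empty-vector array numbered 2 (0.24). They did not count as pairs by the rule, while the A/B-deleted arrays counted as pairs with those of either other group. The block changed no other call of a member. Without 1 array the median difference of the members ran from -0.184 to 0.0475 for the full-length receptor, from -0.212 to 0.0716 for the A/B-deleted receptor and from -0.0556 to 0.158 between them. The lowest values of the first 2 came without the empty-vector array numbered 3, and the highest of the last 2 without the A/B-deleted array numbered 3. The sign was kept under all alternatives in 14, 17 and 10 of 34 members, and against empty vector these included Wnt5a, Zfp521, Sox9, Hes1, Klf4, Klf5 and Ebf1. Of all genes 119, 31 and 0 were called, with the block 661, 166 and 0, with only the 6 compared arrays 67, 20 and 0, and 156, 55 and 0 once the arrays numbered 3 were left out. Without 1 array the counts ran from 57 to 114, from 17 to 34 and from 0 to 1. Quantile normalization and the filter on low values each called 1 gene between the receptors. The cause was not tested.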
